A study of Homo sapiens with 18 samples.

Results

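The CC chemokines CCL2, CCL5, CCL7, CCL8, CCL20 and CCL26 were followed as 6 genes, chosen by symbol, of the 28266 gene rows in the count table. Poly(A) RNA of IMR90 ER:RAS cells was sequenced in 18 libraries. IMR90 are human lung fibroblasts, and every group carried the same ER:RAS fusion from a retroviral construct, whose RAS part is switched on by 4-hydroxytamoxifen (4OHT). Senescent cells had received 4OHT at 100 nM and control cells its solvent, DMSO. After 7 days each kind of culture was given DMSO, IMP1088 at 300 nM or DDD86481 at 1.5 µM for 3 days, so all cells were collected on day 10. This gave 6 groups of 3 replicates: control DMSO, control IMP1088, control DDD86481, senescent DMSO, senescent IMP1088 and senescent DDD86481. Both compounds inhibit the N-myristoyltransferases (NMTs), enzymes that attach myristate to the N terminus of proteins. The labels only number the replicates, and a legend of the study describes its replicates for this experiment as independent experiments. All groups come from 1 fibroblast line and 1 model of oncogene-induced senescence.

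CC chemokines are small secreted proteins, named for a pair of adjacent cysteines, that bind G-protein-coupled receptors on leukocytes and steer their migration. Fibroblasts make several of them under the control of NF-κB, AP-1, C/EBP and STAT factors, for example after contact with interleukin-1. They are part of the secretome of senescent cells. CCL2, CCL7 and CCL8 are monocyte chemoattractants that act mainly through CCR2, with CCR1 and CCR3 for some of them. CCL5 recruits T cells and monocytes through receptors that include CCR1 and CCR3. CCL20 is the chemokine ligand of CCR6, found on dendritic cells and interleukin-17-producing T cells, and CCL26 is an eotaxin that acts on eosinophils through CCR3.

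In RefSeq (GRCh38.p14), CCL2 lies at chr17:34255285-34257203, CCL7 at chr17:34270221-34272242 and CCL8 at chr17:34319435-34321402, in an unbroken run of 6 CC chemokine genes that also holds CCL11, CCL13 and CCL1. CCL5 is on the same chromosome at chr17:35871491-35880360. CCL20 is at chr2:227813842-227817556 and CCL26 at chr7:75769524-75791597. No exonic base of the 6 genes overlapped an exon of another gene in the GENCODE annotation used here, and none shared a stretch of 75 bases, the read length, at 98% identity or more with a transcript of another gene.

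Promoter windows of 300 bases ran from 250 bases before the start site to 50 bases after it. The set of windows used here held 4 of the 6 genes: CCL7, CCL8, CCL20 and CCL26. Those of CCL20, CCL26 and CCL7 are shown because the first pair was higher and the third was lower in senescent cells given an NMT inhibitor. Capitals mark matches on either strand to the NF-κB consensus, AP-1 (TGANTCA), C/EBP (TTNNGNAA), STAT (TTCNNNGAA), the interferon response element ISRE (GAAANNGAAA), STAT6 (TTCNNNNGAA) and the TATA box (TATAAA). The windows are chr2:227813592-227813891 on the plus strand for CCL20, chr7:75789697-75789996 on the minus strand for CCL26, which lies inside the RefSeq span of that gene, and chr17:34269971-34270270 on the plus strand for CCL7.
CCL20: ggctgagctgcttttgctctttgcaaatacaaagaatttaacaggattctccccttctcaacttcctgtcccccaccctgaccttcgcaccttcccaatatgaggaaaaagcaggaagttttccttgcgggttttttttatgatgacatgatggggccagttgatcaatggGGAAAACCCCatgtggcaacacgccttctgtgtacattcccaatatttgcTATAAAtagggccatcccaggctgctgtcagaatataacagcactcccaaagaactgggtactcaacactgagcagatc
CCL26: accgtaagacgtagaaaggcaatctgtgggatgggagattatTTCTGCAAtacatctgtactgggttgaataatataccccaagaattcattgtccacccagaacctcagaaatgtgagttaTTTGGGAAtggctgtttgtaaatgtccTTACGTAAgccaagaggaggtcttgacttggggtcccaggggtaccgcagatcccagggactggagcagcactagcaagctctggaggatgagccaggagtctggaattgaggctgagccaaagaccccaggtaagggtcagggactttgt
CCL7: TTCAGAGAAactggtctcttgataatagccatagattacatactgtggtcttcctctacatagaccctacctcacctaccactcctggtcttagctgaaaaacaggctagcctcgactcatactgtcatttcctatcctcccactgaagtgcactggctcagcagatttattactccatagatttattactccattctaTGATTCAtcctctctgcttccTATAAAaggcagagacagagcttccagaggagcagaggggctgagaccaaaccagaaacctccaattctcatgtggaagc

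Positions count from the start site, with negative numbers before it. The CCL20 window held an NF-κB match beginning at -79 on the minus strand and a TATA box at -29. Of all 35116 promoter windows, 11.3% held an NF-κB match and 11.5% a TATA box. The CCL7 window held an AP-1 match at -51 (7.71% of windows hold one), a STAT match at -250 (7.66% of windows) and a TATA box at -30. The CCL26 window held 3 C/EBP matches, at -208, -128 and -101 (36.8% of windows hold at least 1), and no TATA box. The CCL8 window, not printed because the gene was not detected above the floor, held a STAT match at -91 and a TATA box at -30. None of the 4 windows held an ISRE (3.57% of windows) or a STAT6 match (6.44%), and no match overlapped another. A match describes these letters and is no evidence of binding.

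Libraries held between 16143716 and 23189950 counts. Levels are given in CPM, counts scaled to the TMM-adjusted library size. Detection was limited to more than 3 counts in a library, the floor, which is the upper limit left by a count of 0 and corresponds to 0.121 to 0.187 CPM. Floors and counting intervals cover counting error only and not the spread between replicates. Reads had no molecular identifiers, so counts are of reads and not of molecules. A total of 14341 genes passed the filter on low counts and were tested with edgeR's quasi-likelihood test. A gene was called at a Benjamini-Hochberg adjusted p under 0.05. All 12 fibroblast markers were above the floor in every library. Their summed level was 29279 to 46976 CPM in control libraries, 26347 to 29836 in senescent DMSO and 17376 to 20539 in senescent cells with an inhibitor. The fibroblast marker DCN was at 3042 ± 226 CPM in control DMSO and 7.73 ± 0.288 in senescent DMSO (SD, n = 3). Of 15 leukocyte markers, 3 or 4 were above the floor in every library of a group. Their summed level was 32.9 to 42.5 CPM in control libraries and 98.8 to 173 in senescent libraries, where CD68 alone was at 91 to 164. CD4 had 103 to 546 counts a library, at most 22 CPM, and CSF1R, CD79A and CD14 had at most 17, 15 and 13 counts. PTPRC, the pan-leukocyte marker, had at most 7 counts in any library, and CD3E, CD3D, MS4A1 and NKG7 were at 0 in all 18. The 9 endothelial and epithelial markers summed to 29.2 to 40.5 CPM in control DMSO and 7.42 to 12.1 in all other libraries, and 3 to 6 of them were above the floor in every library of a group. KRT19 had the highest level among them, 37.8 CPM in a control DMSO library, and ranged from 9 to 759 counts over the libraries. The sum does not describe most of these markers. Of the 5 that were tested, 3 were called higher and 1 lower in senescent against control DMSO (edgeR). Among all genes tested, 32.5% were called higher and 36.0% lower. PECAM1 was at 2.77 ± 0.417 CPM in senescent DMSO and 0.21 ± 0.134 in control DMSO (SD, n = 3). The marker genes named here were picked after their values were seen. Fewer cells of a type and less RNA per cell cannot be told apart in bulk RNA. HRAS, whose count can include the fusion, was at 3119 ± 114 CPM in control DMSO and 5630 ± 388 in senescent DMSO (SD, n = 3). The part of these shifts in the results was not tested. Control DMSO replicate 3 stood apart from its group, with a correlation of 0.979 to replicate 1, and results that rest on it are given without it as well.

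The 6 members fell into 3 patterns. CCL2 and CCL7 were highest in control DMSO, lower in senescent DMSO and lowest in senescent cells given either NMT inhibitor. CCL20 was near 0 in control cells, was present in senescent DMSO and was higher still, 4.81-fold and 5.47-fold, with IMP1088 and DDD86481. CCL26 was low throughout and reached about 1 CPM in senescent cells with an inhibitor. CCL5 and CCL8 stayed at or under the floor in all 18 libraries. These patterns are visible in the plot of levels by library.

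**Figure D1:**
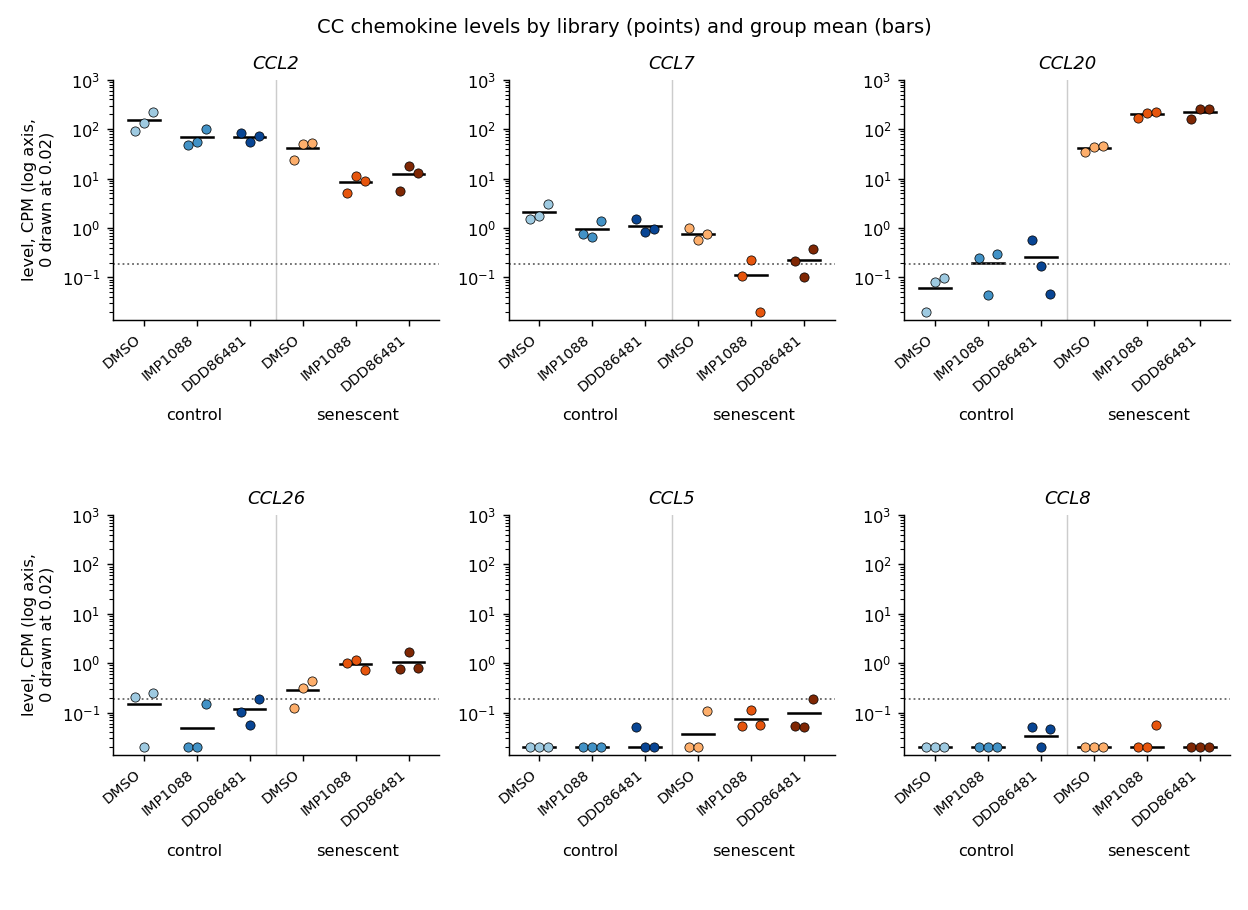
Level in CPM (log axis) of the 6 CC chemokine genes in each of the 18 libraries (points) with the mean of each group of 3 (bars). The dotted line is the highest library floor, 0.187 CPM, and a level of 0 is drawn at 0.02. From control DMSO to senescent DMSO and on to senescent cells with an inhibitor, the group means of CCL2 and CCL7 go down and those of CCL20 go up. All points of CCL5 and CCL8 are at or under the floor of their own library.

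Control and senescent cells under DMSO were compared to see how CC chemokine RNA differs after RAS activation. The comparison called 1 of the 4 tested members higher (CCL20) and 2 lower (CCL2 and CCL7). Among all genes tested, 32.5% were called higher and 36.0% lower, so a call by itself does not set a member apart. The median log2 fold change was -0.21 over the 4 members and -0.05 over all genes tested.

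CCL2, a main attractant of monocytes, was the most abundant member in control cells. Its level was 93.8, 134 and 224 CPM in control DMSO replicates 1, 2 and 3, and 24, 50.2 and 51.5 CPM in the senescent DMSO replicates. The highest value belonged to control DMSO replicate 3, and the groups did not overlap. CCL2 fell by 1.84 ± 0.37 on the log2 scale (SE), or 3.59-fold, with an adjusted p of 0.000205 (edgeR). Without control DMSO replicate 3 the value stayed past the threshold, as it did in each of the 12 alternatives, where it ran from -2.09 to -1.44.

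CCL7, the neighbour of CCL2 on the chromosome, was far lower. Its level was 1.49, 1.77 and 3.09 CPM in control DMSO, from 37, 44 and 62 counts, and 0.988, 0.56 and 0.769 CPM in senescent DMSO, from 16, 9 and 14 counts. The groups did not overlap, and control DMSO replicate 3 was again the highest. CCL7 fell by 1.43 ± 0.40 (log2, SE), or 2.69-fold, with an adjusted p of 0.00342 (edgeR), and its call held in all 12 alternatives.

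CCL20 had 0, 2 and 2 counts in the control DMSO libraries, all at or under the floor. In senescent DMSO it had 572, 701 and 815 counts, or 35.3, 43.6 and 44.8 CPM. The groups were separated by a wide gap. Set against the mean floor of the control libraries, CCL20 was at least 317-fold higher in senescent DMSO, with an adjusted p of 4.78e-14 (edgeR). CCL20 passed the filter on low counts only through the senescent libraries, so in this comparison it could only be called higher.

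CCL26 had 5, 0 and 5 counts in control DMSO and 2, 5 and 8 in senescent DMSO, and the groups overlapped. Its log2 difference of 1.01 ± 0.78 (SE, 95% interval -0.62 to 2.64) was not called, at an adjusted p of 0.259 (edgeR). The ratio of summed counts, 15 against 10, was 2.07 with an exact counting interval of 0.872 to 5.16, so neither equal levels nor a severalfold rise lies outside what this depth allows.

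In senescent cells, IMP1088 and DDD86481 were each compared with DMSO to follow the chemokine RNAs after NMT inhibition. Each comparison called 2 of the 4 tested members higher (CCL20 and CCL26) and 2 lower (CCL2 and CCL7). Among all genes tested, 20.6% were called higher and 23.9% lower with IMP1088, and 20.1% higher and 23.1% lower with DDD86481. The median log2 fold change of the 4 members was -0.31 with IMP1088 and 0.05 with DDD86481, between opposed values, and that of all genes was -0.04 in both. CCL26 passed the filter on low counts only through the senescent libraries with an inhibitor, so its call counts for less. The 2 compounds were used at different doses and share the DMSO libraries, so their values stand side by side without a comparison.

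CCL2 was at 5, 11.4 and 9.02 CPM in the 3 senescent IMP1088 replicates and at 5.62, 18 and 12.7 CPM with DDD86481, against 24 to 51.5 CPM in senescent DMSO. Every library with an inhibitor lay below every DMSO library, and replicate 1 was the lowest of all 3 senescent groups. CCL2 fell by 2.31 ± 0.41 (log2, SE), or 4.96-fold, with IMP1088 (edgeR, adjusted p 0.000134). With DDD86481 it fell by 1.79 ± 0.40, or 3.46-fold (edgeR, adjusted p 0.00116). Both calls held in each of the 12 alternatives.

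CCL7 was at 0.105, 0.224 and 0 CPM with IMP1088, from 2, 4 and 0 counts. With DDD86481 it was at 0.218, 0.104 and 0.368 CPM, from 4, 2 and 6 counts. Both groups lay wholly below senescent DMSO, at 0.56 to 0.988 CPM, and 3 of the 6 libraries were at or under the floor. CCL7 fell by 2.75 ± 0.68 (log2, SE) with IMP1088 at an adjusted p of 0.00243 and by 1.76 ± 0.59 with DDD86481 at an adjusted p of 0.0204 (edgeR). The IMP1088 value was -3.68 without senescent IMP1088 replicate 2. The DDD86481 call was lost without senescent DDD86481 replicate 1 (-1.74, adjusted p 0.0553), without senescent DDD86481 replicate 2 (-1.40, adjusted p 0.0938) and without senescent DMSO replicate 1 (-1.55, adjusted p 0.0759).

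CCL20 rose from 35.3, 43.6 and 44.8 CPM in senescent DMSO to 168, 210 and 218 CPM with IMP1088 and to 164, 259 and 253 CPM with DDD86481. Every library with an inhibitor was far above every DMSO library. The rise was 2.27 ± 0.19 (log2, SE), or 4.81-fold, with IMP1088 (edgeR, adjusted p 1.71e-08). With DDD86481 it was 2.45 ± 0.19, or 5.47-fold (edgeR, adjusted p 8.33e-09). Neither call was lost in any of the 12 alternatives, where the log2 values ran from 2.17 to 2.38 and from 2.34 to 2.64. CCL20 ranked number 304 by absolute log2 fold change among the 14341 genes in the first comparison and number 244 in the second.

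CCL26 had 19, 21 and 13 counts with IMP1088, or 1, 1.17 and 0.729 CPM. With DDD86481 it had 14, 32 and 13 counts, or 0.764, 1.67 and 0.797 CPM. All 6 libraries lay above senescent DMSO, whose levels were 0.123, 0.311 and 0.44 CPM. The rise was 1.69 ± 0.58 (log2, SE) with IMP1088 at an adjusted p of 0.0224 and 1.86 ± 0.57 with DDD86481 at an adjusted p of 0.012 (edgeR). The IMP1088 call was lost without senescent DMSO replicate 1 (1.34, adjusted p 0.0983), without senescent DMSO replicate 2 (1.72, adjusted p 0.054), without senescent IMP1088 replicate 1 (1.66, adjusted p 0.0519) and without senescent IMP1088 replicate 2 (1.53, adjusted p 0.0732). The DDD86481 call was lost without senescent DDD86481 replicate 2 (1.38, adjusted p 0.0952) and without senescent DMSO replicate 1 (1.51, adjusted p 0.0618).

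**Figure D2:**
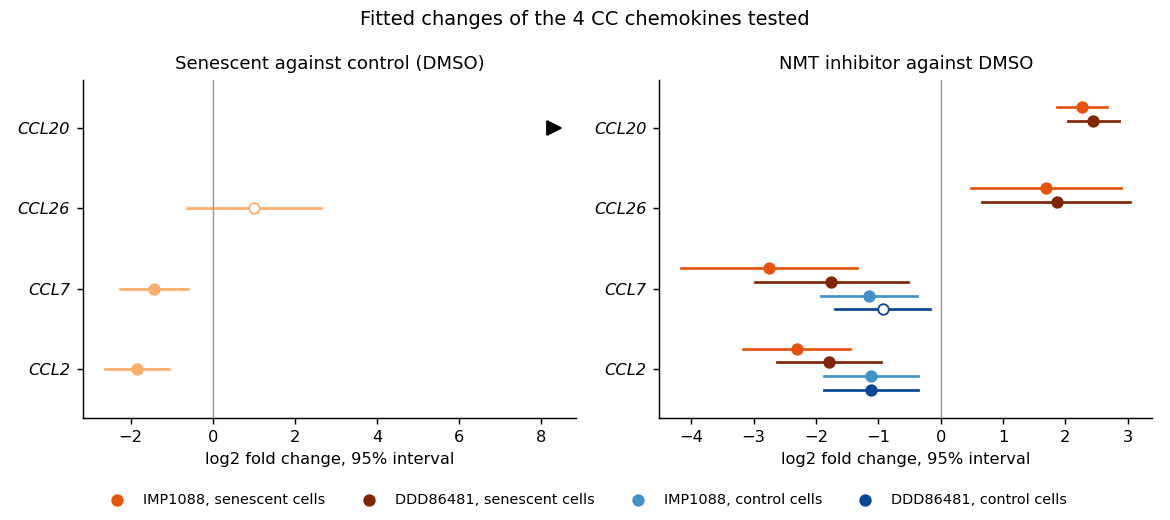
Log2 fold change with its 95% interval for the 4 CC chemokines tested. The left panel compares senescent with control cells under DMSO, where the CCL20 arrow marks the lower bound of 317-fold. The right panel compares each NMT inhibitor with DMSO in senescent and control cells, without the control values of CCL20 and CCL26, which had at most 11 counts a library. Filled points passed the adjusted p of 0.05 and open points did not. CCL2 and CCL7 lie left of 0 and CCL20 lies right of it.

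CCL5 was at or under the floor everywhere. It had 0 counts in all control DMSO and control IMP1088 libraries and 1, 0 and 0 in control DDD86481. In senescent cells it had 0, 0 and 2 counts with DMSO, 1, 2 and 1 with IMP1088, and 1, 1 and 3 with DDD86481. CCL8, the neighbour of CCL11 in the run of genes on chromosome 17, had at most 1 count in any library and 0 in 15 of them. A change of either gene was not detectable at this depth.

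In control cells the same 2 comparisons with DMSO were made. IMP1088 called none of the 4 tested members higher and 2 lower (CCL2 and CCL7), beside 16.3% of all genes higher and 17.4% lower. DDD86481 called none higher and 1 lower (CCL2), beside 17.8% higher and 18.7% lower. The members' median log2 fold change was -1.13 and -0.59, and that of all genes was near 0. The DESeq2 Wald test called 2 members for each compound, and for DDD86481 the second was CCL20, as higher. The share of all genes called by DESeq2 is not given here.

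CCL2 was at 48.8, 55.7 and 103 CPM in control IMP1088 and at 82.9, 54.1 and 71.2 CPM in control DDD86481, against 93.8, 134 and 224 CPM in control DMSO. The IMP1088 and DMSO groups overlapped at 1 library each, and the DDD86481 group lay below DMSO. CCL2 fell by 1.12 ± 0.36 (log2, SE) with IMP1088 at an adjusted p of 0.0226 and by 1.11 ± 0.36 with DDD86481 at an adjusted p of 0.0214 (edgeR). Both calls rested on control DMSO replicate 3, without which the values were -0.72 and -0.71, each with an adjusted p of 0.117. The IMP1088 call was also lost without control IMP1088 replicate 1 (-0.91, adjusted p 0.106), without control IMP1088 replicate 2 (-0.98, adjusted p 0.0867) and when only the groups compared were fitted (adjusted p 0.0601). The DDD86481 call was also lost without control DDD86481 replicate 2 (-0.96, adjusted p 0.0821) and without control DDD86481 replicate 3 (-1.13, adjusted p 0.055).

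CCL7 was at 0.753, 0.668 and 1.41 CPM in control IMP1088 and at 1.51, 0.84 and 0.935 CPM in control DDD86481, against 1.49 to 3.09 CPM in control DMSO. The IMP1088 group lay just below the DMSO group and the DDD86481 group touched it. CCL7 fell by 1.15 ± 0.37 (log2, SE) with IMP1088 at an adjusted p of 0.0218 (edgeR). That call was lost without control DMSO replicate 3 (-0.79, adjusted p 0.127), without control IMP1088 replicate 1 (-1.01, adjusted p 0.0857), without control IMP1088 replicate 2 (-0.94, adjusted p 0.0973) and with only the groups compared (adjusted p 0.0687). With DDD86481 the difference of -0.93 ± 0.37 (SE, 95% interval -1.69 to -0.16) missed the threshold at an adjusted p of 0.0533 (edgeR). It passed without control DDD86481 replicate 1 (-1.22, adjusted p 0.041), without control DMSO replicate 1 (-1.13, adjusted p 0.0209), with the replicate block (adjusted p 0.0445), with upper quartile scaling (adjusted p 0.0385) and with no filter on low counts (adjusted p 0.0298). Over all single libraries left out the value ran from -1.22 to -0.571, with an adjusted p of up to 0.275 (edgeR).

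CCL20 stayed close to the floor in control cells. It had 5, 1 and 6 counts with IMP1088 and 11, 3 and 1 with DDD86481, against 0, 2 and 2 with DMSO. The ratio of summed counts to DMSO was 3.32 with IMP1088 (exact counting interval 1.01 to 14.1) and 4.48 with DDD86481 (1.43 to 18.5). Over replicates neither difference was called, at adjusted p of 0.254 and 0.121 (edgeR). The DDD86481 difference passed without control DDD86481 replicate 3 (2.59, adjusted p 0.0467), by DESeq2 (adjusted p 0.0292) and with no filter on low counts (adjusted p 0.0313). Over all single libraries left out it ran from 0.773 to 2.59, with an adjusted p of up to 0.686 (edgeR). Most of its counts, 11, lay in control DDD86481 replicate 1. The highest control level, 0.574 CPM in control DDD86481 replicate 1, was far below the lowest senescent level of 35.3 CPM. CCL26 had 0, 0 and 3 counts with IMP1088 and 2, 1 and 4 with DDD86481, and neither difference from DMSO was called (edgeR, adjusted p 0.312 and 0.855).

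Whether an inhibitor's effect differed between senescent and control cells was tested as an interaction, in which the log2 change of control cells is subtracted from that of senescent cells. None of the 4 tested members was called for IMP1088, beside 12.1% of all genes higher and 14.2% lower, and none for DDD86481, beside 14.4% higher and 15.9% lower. At an unadjusted p under 0.05 there were 2 members for IMP1088 (CCL2 and CCL26) and 0 for DDD86481, and DESeq2 called 1 and 0. The shares of all genes at these settings are not given here, so these counts do not set the members apart. The CCL2 interaction was -1.19 ± 0.54 for IMP1088 (SE, 95% interval -2.33 to -0.06, adjusted p 0.111, edgeR). It passed the threshold without control DMSO replicate 3 (-1.60, adjusted p 0.0236), with the replicate block (-1.18, adjusted p 0.047) and with no filter on low counts (adjusted p 0.00216). Over the 12 single libraries left out it ran from -1.60 to -0.761, with an adjusted p of up to 0.311, and passed only 1 time. For DDD86481 it was -0.67 ± 0.53 (SE, interval -1.79 to 0.44). The CCL7 interaction was -1.60 ± 0.80 and -0.83 ± 0.70 (SE), and neither was called. For CCL20 and CCL26 the interaction rests on control libraries with at most 11 counts and says little. The CCL26 value for IMP1088, 3.16 ± 1.20 (SE, adjusted p 0.0646, edgeR), passed without control DMSO replicate 2 (3.80, adjusted p 0.0185) and without control IMP1088 replicate 3 (6.27, adjusted p 0.0192), as it did by DESeq2 (adjusted p 0.0377) and with no filter (adjusted p 0.0346). Its value for DDD86481, 2.11 ± 1.10 (SE, adjusted p 0.156, edgeR), passed without control DMSO replicate 2 (2.76, adjusted p 0.046). Over all single libraries left out, the CCL26 values went down to 2.63 for IMP1088 and 1.62 for DDD86481, with adjusted p of up to 0.193 and 0.391 (edgeR).

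Ordered by group mean, CCL2 was highest in control DMSO at 151 ± 66.9 CPM (SD, n = 3), followed by control DDD86481 at 69.4 ± 14.5, control IMP1088 at 69.2 ± 29.6, senescent DMSO at 41.9 ± 15.5, senescent DDD86481 at 12.1 ± 6.22 and senescent IMP1088 at 8.48 ± 3.24. The 2 control groups with an inhibitor overlapped, as did the 2 senescent groups with an inhibitor, and 1 control IMP1088 library lay below the highest senescent DMSO library. For CCL20 the order was senescent DDD86481 at 226 ± 53.5 CPM, senescent IMP1088 at 199 ± 27.1 and senescent DMSO at 41.2 ± 5.17 (SD, n = 3), the first pair overlapping, with every control group under 0.3 CPM on average. CCL7 ran from 2.12 ± 0.851 CPM in control DMSO to 0.11 ± 0.112 in senescent IMP1088 (SD, n = 3), and neighbouring groups in its order overlapped from control DMSO through to senescent DMSO, as did the 2 senescent groups with an inhibitor. CCL26 was highest in senescent DDD86481 at 1.08 ± 0.515 CPM and senescent IMP1088 at 0.967 ± 0.224 (SD, n = 3), which overlapped.

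Levels of different genes were compared per kilobase of the canonical transcript, which spans 741 bases for CCL2, 810 for CCL7, 834 for CCL20 and 475 for CCL26. CCL2 held 97.5 to 98.8% of the summed CC chemokine level in the 9 control libraries, whatever the treatment. In senescent DMSO it held 42.5, 55.8 and 55.5% while CCL20 held 55.6, 43.1 and 42.9%, so the pair stood at similar levels. With IMP1088 CCL20 held 95.7, 93.3 and 95% and CCL2 3.21, 5.69 and 4.42%. With DDD86481 the shares were 95.4, 91.7 and 94% for CCL20 and 3.69, 7.17 and 5.3% for CCL2.

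The ratio of CCL20 to CCL2 per kilobase was 1.31, 0.772 and 0.773 in senescent DMSO, 29.8, 16.4 and 21.5 in senescent IMP1088, and 25.9, 12.8 and 17.7 in senescent DDD86481. In control cells it did not exceed 0.00615. The 3 sets of senescent ratios split into DMSO below and both inhibitors above, with no overlap. An exact permutation test of 3 against 3 libraries cannot go below p = 0.1, so the ratio is given as a description. Over all annotated exons, 1935 bases for CCL2 and 1594 for CCL20, the senescent DMSO ratios were 1.79, 1.05 and 1.06, so which of the pair was the higher under DMSO depended on the length used.

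**Figure D3:**
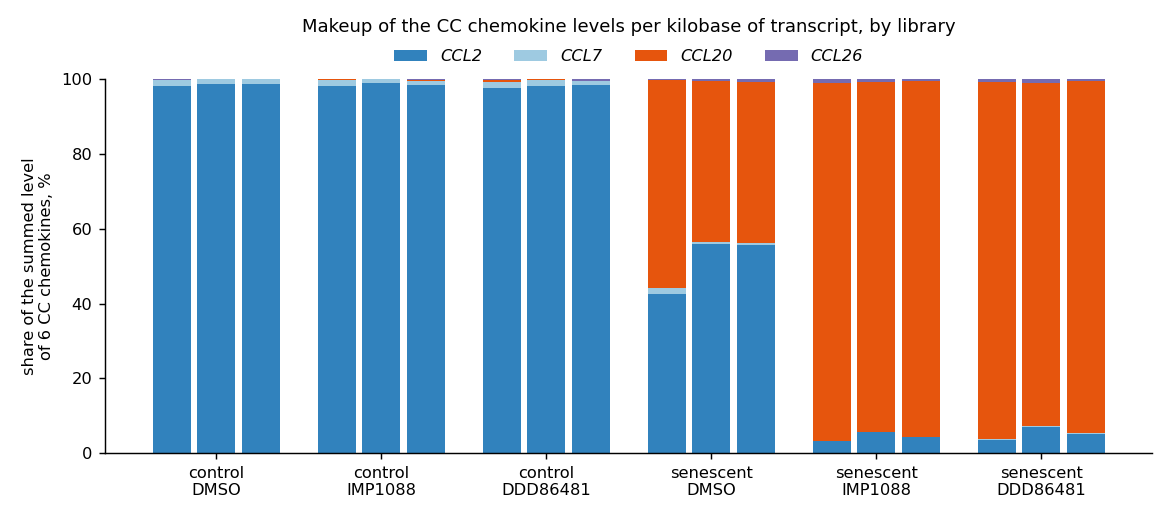
Share of each CC chemokine in the summed level of the 6 genes, in CPM per kilobase of canonical transcript, for every library (1 bar each). CCL5 and CCL8 are in the sum but too low to be drawn. CCL2 fills the control bars, CCL2 and CCL20 share the senescent DMSO bars, and CCL20 takes 91.7 to 95.7% of the bars of senescent cells with an inhibitor.

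The other 22 CC chemokine ligands were mostly silent in these cells, and only CCL11 and CCL28 passed the filter. CCL11, an eotaxin gene lying between CCL7 and CCL8, had 20, 19 and 42 counts in control DMSO and 0 counts in all 9 senescent libraries. It was at least 6.82-fold lower in senescent DMSO, set against the floor (edgeR, adjusted p 6.01e-05). Neither NMT inhibitor moved CCL11 past the threshold in control cells, where it was at 1.81, 1.34 and 2.82 CPM with IMP1088 and at 1.67, 1.12 and 0.935 CPM with DDD86481. CCL28, named after its values were seen, had at most 18 counts in any library and was called in no comparison. CCL11 passed the filter only through control libraries and so could only be called lower. CCL8, CCL13 and CCL1, the other genes of the chromosome 17 run, were not tested.

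Of 14 receptor genes for CC chemokines, CCR1, CCR7, CCR10 and CCRL2 passed the filter. CCR6, the receptor of CCL20, and CCR2 and CCR3 did not. In senescent against control DMSO, 3 of the 4 were called higher and none lower, beside 32.5% of all genes higher and 36.0% lower. These 3, CCR1, CCR7 and CCRL2, had at most 4 counts in any control library and passed the filter only through senescent libraries, so they could only be called higher. Neither inhibitor called a receptor in control cells, where CCR10 was the only one of the 4 above 4 counts in any library. CCR1, a receptor of CCL5 and CCL7, had 139, 113 and 121 counts in senescent DMSO and 2, 0 and 3 in control DMSO, at least 57-fold higher (edgeR, adjusted p 1.59e-11). CCRL2, an atypical receptor that does not signal through G proteins, was at 1.17 to 1.49 CPM in the senescent DMSO libraries and at or under the floor in control DMSO, at least 10.2-fold higher (edgeR, adjusted p 6.7e-07). CCR7, which guides leukocytes to lymph nodes, rose by 2.96 ± 0.60 (log2, SE, edgeR, adjusted p 0.000202), from 3 or 4 counts to 12, 17 and 30. Beside these leukocyte receptors, PTPRC had 1 to 6 counts in the senescent DMSO libraries and 0 to 3 in control DMSO, and the part of other cells in the receptor counts was not tested.

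In senescent cells with an inhibitor the receptors went separate ways. CCR10, a receptor of CCL28, was at 5.79, 5.7 and 4.88 CPM with IMP1088 and at 6.06, 5.07 and 6.19 CPM with DDD86481, above all senescent DMSO libraries at 2.72, 3.74 and 2.53 CPM. It rose by 0.87 ± 0.24 and 0.95 ± 0.24 (log2, SE, edgeR, adjusted p 0.00504 and 0.00266). In the GENCODE annotation, 34.4% of its exonic bases overlap exons of other genes, among them CNTNAP1 on the opposite strand, so its counts are uncertain. CCRL2 rose to 3.42, 3.07 and 2.75 CPM with IMP1088, a change of 1.21 ± 0.31 (log2, SE, edgeR, adjusted p 0.00369). With DDD86481, where the naming rule did not choose it, it was at 1.86, 2.4 and 3.07 CPM, a change of 0.87 ± 0.32 (log2, SE, edgeR, adjusted p 0.0348) that lost its call without any 1 of 5 libraries: DDD86481 replicates 2 (0.88) or 3 (0.68), or DMSO replicates 1 (0.79), 2 (0.96) or 3 (0.86).

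CCR1 was lower with DDD86481, at 3.71, 4.6 and 2.94 CPM against 8.58, 7.03 and 6.65 with DMSO, a fall of 0.98 ± 0.24 (log2, SE, edgeR, adjusted p 0.0023). With IMP1088 it was at 5.89, 6.37 and 3.7 CPM and was not called (edgeR, adjusted p 0.0989), a value named after it was seen. It passed when only the groups compared were fitted (adjusted p 0.0437). CCR7 passed the filter on low counts only through the senescent DMSO libraries, with 12, 17 and 30 counts, so its calls as lower count for less. It fell by 2.24 ± 0.58 with DDD86481 (SE, edgeR, adjusted p 0.00371), where it had 0, 11 and 2 counts. Without senescent DDD86481 replicate 2, which held the 11, the value was -4.18, and over all libraries left out it ran to -1.66, past the threshold each time. With IMP1088 it had 13, 8 and 5 counts and fell by 1.28 ± 0.51 (SE, edgeR, adjusted p 0.0464), a call that was lost by DESeq2 (adjusted p 0.134), with the replicate block (adjusted p 0.0594), without senescent DMSO replicates 2 (-1.34) or 3 (-0.92) and without senescent IMP1088 replicates 2 (-1.24) or 3 (-1.02).

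**Figure D4:**
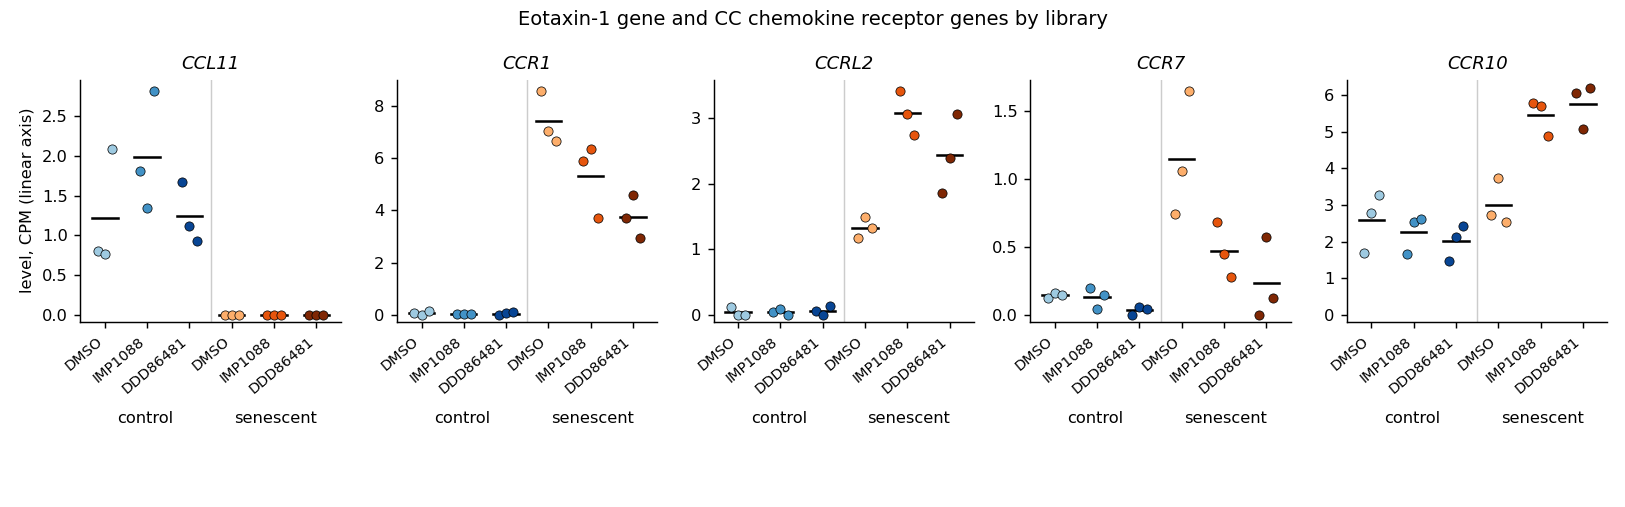
Level in CPM (linear axis) of CCL11 and the 4 CC chemokine receptor genes that passed the filter, for each library (points) with the mean of each group of 3 (bars). CCL11 is at 0 in every senescent library. CCR1, CCRL2 and CCR7 are near 0 in control cells, and CCR10 is at 4.88 CPM or more in senescent cells with an inhibitor, against at most 3.74 in the other groups.

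A list of 32 known inducers and regulators of these chemokines held 30 tested genes. In senescent against control DMSO, 16 were called higher and 8 lower, beside 32.5% of all genes higher and 36.0% lower. The 4 with the greatest change were the interleukin-1 genes IL1B (12.1 ± 0.21) and IL1A (9.47 ± 0.28), the interleukin-13 decoy receptor IL13RA2 (5.16 ± 0.17) and the interleukin-1 receptor IL1R1 (-2.96 ± 0.14), all as log2 changes with SE from edgeR. With upper quartile scaling the median log2 fold change of all tested genes moved by -0.155 here and by less than 0.1 elsewhere, and among the members it changed only the CCL7 call for DDD86481 in control cells.

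In senescent cells IMP1088 called 5 of the 30 higher and 8 lower, and DDD86481 6 higher and 8 lower. These counts were near the background, since IMP1088 called 20.6% of all genes higher and 23.9% lower, and the shares for DDD86481 were 20.1% and 23.1%. FOS, a subunit of AP-1, rose by 1.72 ± 0.51 with IMP1088 and by 2.47 ± 0.50 with DDD86481, and IRF7, an interferon regulator, by 1.60 ± 0.17 and 1.33 ± 0.17 (log2, SE). JUNB rose by 0.90 ± 0.17 and 0.99 ± 0.17. STAT6, which carries the interleukin-4 signal, fell by 0.73 ± 0.09 with IMP1088 and by 0.58 ± 0.09 with DDD86481 (log2, SE). CEBPB rose by 0.53 ± 0.14 and 0.81 ± 0.14 in the same order. In control cells, 13 were called higher and 4 lower with IMP1088, and 13 higher and 3 lower with DDD86481, beside 16.3% of all genes higher and 17.4% lower, and 17.8% and 18.7%. FOS rose by 2.65 ± 0.44 and 2.69 ± 0.44, the second being 2.01 without control DDD86481 replicate 1, and JUNB by 1.07 ± 0.17 and 1.03 ± 0.17 (log2, SE). IL6 fell by 1.11 ± 0.30 and 1.18 ± 0.30, and its IMP1088 call was lost without control DMSO replicate 3 (-0.70, adjusted p 0.0523, edgeR) and with only the groups compared (adjusted p 0.0871). FOSL1 fell by 0.91 ± 0.16 with IMP1088 and by 0.95 ± 0.16 with DDD86481, and TNFAIP3, a feedback inhibitor of NF-κB, rose by 0.84 ± 0.17 and 0.99 ± 0.17 (log2, SE). The interactions called 2 higher and 10 lower for IMP1088, beside 12.1% and 14.2% of all genes, and 3 higher and 9 lower for DDD86481, beside 14.4% and 15.9%. Where the naming rule chose STAT6, CEBPB, FOSL1 or TNFAIP3 for 1 compound only, the value for the other was added after it was seen.

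The genes whose profile over the 18 libraries was most like each member were taken by the root mean square difference of log2 CPM centred on each gene's mean. For CCL2 these were LYPD1 (0.464) and FILIP1L (0.471). For CCL7 they were GLIPR2 (0.464) and again LYPD1 (0.516). CCL20 was closest to CXCL8 (0.897), the gene of interleukin-8, and to LCE1F (0.965), and CCL26 to TMEM144 (0.53). LYPD1 went from 23.1 ± 2.81 CPM in control DMSO to 5.96 ± 0.913 in senescent DMSO and 1.17 ± 0.167 in senescent IMP1088 (SD, n = 3). CXCL8 went from 23.8 ± 11.9 CPM to 6991 ± 656 and 9072 ± 304 in the same groups. LCE1F was at 48.6 ± 5.44 CPM in senescent DMSO and 63.1 ± 2.19 in senescent IMP1088 (SD, n = 3). Between these 2 groups CCL20 rose more than either gene, from at most 44.8 CPM to at least 168 CPM in a library.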

How the data were processed

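RNA of 18 libraries in 6 groups of 3 was analysed from 1 table of raw counts per gene symbol, deposited by the authors. The submitters' processing notes name hg38, DRAGEN, STAR 2.7.8a and DESeq2 1.32.0 without their roles, whereas the study's methods describe alignment to hg19. The build, annotation and strand setting behind the counts are therefore uncertain, and positions come from RefSeq. Groups were taken from the sample labels. The members and gene lists were chosen with earlier results of these data known.

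Counts were normalised by TMM and filtered with filterByExpr. All libraries entered 1 quasi-likelihood fit of 6 groups (edgeR 4.0.16, R 4.3.3), and p-values were Benjamini-Hochberg adjusted over the 14341 genes tested, which held 99.962% of counts. SE is the absolute log2 fold change over the root of F. A fold against a group at or under the floor of 3 counts a library is a bound on the mean floor. Log2 CPM for profiles used a prior count of 2. The script was tested on simulated counts for 12296 genes above 1 CPM in senescent DMSO, which leaves out CCL7 and CCL26. It called 94 of 100 genes changed 2-fold, 56 of 100 changed 1.5-fold and 7 of 12096 unchanged genes. Counting intervals are exact at 95% (SciPy 1.17.1).

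All 6 members were named in every comparison, with at most 3 other ligands and 3 receptors called, 4 regulators called and the 2 genes of most similar profile per member, and HRAS as a check of the design. Some genes that these rules or lists hold are not reported here. Alternatives were upper quartile scaling, DESeq2 size factors, the DESeq2 1.42.0 Wald test, no filter, fitting only the groups compared, a replicate block, leaving out each library, and raw library totals for levels. Deviations of same-numbered control DMSO and control IMP1088 libraries correlated at 0.394, 0.123 and 0.231. In each other comparison at least 1 correlation was under 0.1. These values do not settle whether the replicate numbers pair, so the block was kept as an alternative. No replicates agreed within sampling noise (chi-square per gene at least 5.257). Symbols matched RefSeq for 95.5% of rows. Transcript lengths and exon overlaps came from the GENCODE annotation on GRCh37, and sequence sharing was checked with BLAST.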

Additional observations from a re-analysis of the deposited data

Results flagged for a closer look

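CCR10 was flagged because the effect of an NMT inhibitor differed between senescent and control cells by the interaction test (edgeR). The interaction was 1.04 ± 0.34 for IMP1088 (log2, SE, adjusted p 0.0307) and 1.30 ± 0.35 for DDD86481 (adjusted p 0.00894). All 6 senescent libraries with an inhibitor were above all 3 senescent DMSO libraries, while in control cells the groups overlapped. The IMP1088 value lost its call without any 1 of 7 libraries: control DMSO replicates 2 (1.00) or 3 (0.84), control IMP1088 replicate 1 (0.89), senescent DMSO replicates 1 (0.98) or 3 (0.93), or senescent IMP1088 replicates 1 (0.99) or 2 (1.01). The DDD86481 call held in all alternatives. Of the exonic bases of CCR10, 34.4% overlap other genes, whose part was not tested.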

How the results depend on the processing

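The rise of CCL20 with either inhibitor and the fall of CCL2 in senescent cells kept their calls under every alternative run. Fitting only the groups compared gave 2716 genes for IMP1088 in control cells against 4829, and 2842 for DDD86481 against 5242. The same setting called 0 members for IMP1088 in control cells against 2. For DDD86481 in control cells, 1 member was called, and the count was 2 by DESeq2, with the replicate block and with upper quartile scaling, and 3 with no filter on low counts. For the IMP1088 interaction, 0 members were called, and the count was 1 by DESeq2, 1 with the replicate block and 2 with no filter. Deviations of same-numbered libraries correlated above 0.1 throughout in 1 comparison only, IMP1088 in control cells, where the block changed no member's call. Lower correlations elsewhere do not show that the numbers are unpaired. Leaving out 1 library at a time gave 0 to 2 members for DDD86481 in control cells, 2 to 4 for DDD86481 in senescent cells, 0 to 2 for IMP1088 in control cells, and 0 to 1 for each interaction. Matching numbers of all genes called are given here only for the fit of the groups compared, so the other counts do not set the members apart. Signs turned only for values that were not called: the CCL20 interaction for DDD86481 ran from -0.0998 to 1.72 and CCL26 with DDD86481 in control cells from -0.86 to 0.234. Depth limited CCL5, CCL8, CCL26 and the control values of CCL20, where single counts move the fold. The cause of the other changes was not tested.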
